A study of Mus musculus with 8 samples.

Results

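The nuclear genes for subunits of respiratory complexes I, III, IV and V were followed in RAW264.7 cells, an established mouse macrophage-like line. They were chosen by gene symbol (Nduf with a letter and number, Uqcr, Cyc1, Cox4 to Cox8, and Atp5), leaving out pseudogene symbols, with at least 10 raw counts summed over the 8 libraries. This rule used no value from a comparison, but the set was chosen with earlier results of these data known. Of 42454 rows in the count table, 83 matched and 72 reached the minimum: 33 genes of complex I, 8 of complex III, 15 of complex IV and 16 of complex V. Polyadenylated RNA was sequenced from 4 labelled groups of 2 libraries each. The mock group received DMSO, the solvent. The TubB group received Tubuloside B, a phenylethanoid glycoside. The LPS_IFNg group received lipopolysaccharide (LPS) at 10 ng/ml with interferon-gamma (IFN-γ) at 20 ng/ml, and the LPS_IFNg_TubB group received both stimuli and the compound, with 24 h given as the time for these last 2 groups. The dose of Tubuloside B, and the time for mock and TubB, are not given in the sources used here. All groups share the same tumour-derived line, and nothing in the labels states whether the replicates are separate cultures. A p-value here thus weighs a difference against the scatter of these libraries, which may be technical.

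The respiratory chain sits in the inner mitochondrial membrane. Complex I takes electrons from NADH, complex III passes them from ubiquinol to cytochrome c, complex IV hands them to oxygen, and complex V, the ATP synthase, uses the resulting proton gradient to make ATP. Most subunits are encoded in the nucleus, while a small core of each of these complexes is encoded in mitochondrial DNA. Macrophages activated by LPS and IFN-γ are known for relying more on glycolysis and less on oxidative phosphorylation. None of the 26 names searched for the mitochondrially encoded subunits matched a row of the count table, so these subunits were not analysed.

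Genes that mark the response to LPS and IFN-γ went against the labels. Nos2, the inducible nitric oxide synthase, ranged from 155 to 199 CPM (counts scaled to a common library size) in the 4 libraries labelled mock or LPS_IFNg, and from 5762 to 7429 CPM in the 4 libraries labelled TubB or LPS_IFNg_TubB. Ptgs2, Irf1 and Il6 were likewise high in the libraries carrying the TubB label and low in the others, whichever stimulus label they had. Every direction below is therefore a direction between libraries as labelled, and the 4 libraries with TubB in their label are called TubB-labelled. Across all genes, the library closest to a given one by chi-square was never its own replicate: the mean chi-square per gene was 1.91 to 2.32 between same-numbered libraries of mock and LPS_IFNg or of TubB and LPS_IFNg_TubB, and 2.55 to 4.74 between replicates of a group. All 8 macrophage markers examined were measured, while none of the 4 fibroblast, 4 T cell, 4 B cell or 4 epithelial markers passed the filter on low counts. Library totals lay between 4767894 and 8413834 counts. The scale matters here: dividing by the library total in place of TMM factors (edgeR's correction for composition) shifted the median log2 difference of all genes between TubB-labelled and other libraries by -0.21. TMM factors were 0.909 to 0.948 in the TubB-labelled libraries and 1.07 to 1.08 in the others, and the 20 most abundant genes held 11.9% to 12.5% and 10.8% to 11.1% of counts. Values below use TMM, and those that turn under library totals are named as such.

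Promoter sequences are shown for the members with the strongest changes, for the 3 genes of the ATP synthase c-ring, which encode the same mature protein from different loci, and for Atp5l, a complex V gene that was higher and holds several of the motifs searched. They are RefSeq windows of 300 bases on GRCm38.p6, from 250 bases before the annotated start to 50 bases after it, and all 6 lie on the minus strand: Ndufs8 at chr19:3912725-3913024, Atp5g1 at chr11:96075582-96075881, Atp5g2 at chr15:102670998-102671297, Atp5g3 at chr2:73911277-73911576, Cox7a2l at chr17:83514284-83514583 and Atp5l at chr9:44920693-44920992. Capitals mark matches, on either strand, to the core of the NRF1 site (GCGCATGCG), its inner part (TGCGCA), the ETS/GABPA site (CCGGAAG) or the YY1 site (ATGGCGG). Nuclear respiratory factor 1, GA-binding protein and YY1 are known activators of respiratory genes.
Ndufs8: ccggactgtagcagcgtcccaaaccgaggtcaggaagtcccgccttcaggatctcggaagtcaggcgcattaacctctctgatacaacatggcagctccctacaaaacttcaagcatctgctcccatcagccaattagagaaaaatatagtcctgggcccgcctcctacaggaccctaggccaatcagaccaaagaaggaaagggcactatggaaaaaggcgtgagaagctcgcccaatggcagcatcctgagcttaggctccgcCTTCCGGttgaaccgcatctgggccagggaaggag
Atp5g1: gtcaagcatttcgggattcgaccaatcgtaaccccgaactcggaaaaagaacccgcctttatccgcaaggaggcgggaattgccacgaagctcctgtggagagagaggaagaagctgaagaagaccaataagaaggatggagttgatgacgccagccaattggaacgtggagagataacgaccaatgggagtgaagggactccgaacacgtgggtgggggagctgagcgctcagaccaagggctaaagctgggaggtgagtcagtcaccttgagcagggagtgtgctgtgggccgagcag
Atp5g2: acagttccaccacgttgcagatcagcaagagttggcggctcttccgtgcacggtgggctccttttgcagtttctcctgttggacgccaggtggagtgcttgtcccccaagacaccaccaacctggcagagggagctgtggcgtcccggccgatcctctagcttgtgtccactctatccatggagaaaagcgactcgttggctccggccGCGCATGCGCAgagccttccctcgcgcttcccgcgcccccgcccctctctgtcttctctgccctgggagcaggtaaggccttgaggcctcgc
Atp5g3: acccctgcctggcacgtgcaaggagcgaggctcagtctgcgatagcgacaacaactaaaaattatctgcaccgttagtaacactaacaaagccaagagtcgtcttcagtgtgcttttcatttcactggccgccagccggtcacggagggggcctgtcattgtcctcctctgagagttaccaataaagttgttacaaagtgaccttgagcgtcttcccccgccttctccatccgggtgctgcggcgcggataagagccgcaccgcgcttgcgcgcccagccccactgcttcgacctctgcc
Cox7a2l: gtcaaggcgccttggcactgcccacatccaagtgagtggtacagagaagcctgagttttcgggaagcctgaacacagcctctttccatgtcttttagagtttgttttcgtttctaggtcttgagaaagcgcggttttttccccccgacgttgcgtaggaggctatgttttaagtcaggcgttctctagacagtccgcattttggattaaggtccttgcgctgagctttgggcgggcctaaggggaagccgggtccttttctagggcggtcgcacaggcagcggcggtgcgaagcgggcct
Atp5l: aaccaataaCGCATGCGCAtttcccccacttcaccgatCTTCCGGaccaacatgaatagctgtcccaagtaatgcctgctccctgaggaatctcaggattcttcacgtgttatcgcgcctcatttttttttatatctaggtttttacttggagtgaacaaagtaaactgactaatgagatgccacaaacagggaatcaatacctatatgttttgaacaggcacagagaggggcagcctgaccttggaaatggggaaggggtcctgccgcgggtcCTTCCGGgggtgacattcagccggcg

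The Ndufs8 window held 1 ETS/GABPA match, 15 bases after the start. The Atp5g2 window held a palindromic run 42 to 32 bases before the start in which 2 NRF1 core matches and 1 inner match overlap, so these are 1 stretch and not 3 sites. The Atp5l window held overlapping NRF1 core and inner matches and 2 separate ETS/GABPA matches. No match was found in the windows of Atp5g1, Atp5g3 and Cox7a2l, which says only that these letters are not there. Of the 72 members, 59 had a window in the table, 63 windows in all. The NRF1 core was in 11.1% of member windows against 1.75% of all 32851 windows, the inner part in 25.4% against 7.76%, the ETS/GABPA letters in 22.2% against 8.86%, and the YY1 letters in 14.3% against 4.05%. The ETS/GABPA letters were in 17.4% of the 23 windows of members that fell, 45.5% of the 11 of members that rose and 17.2% of the 29 of members that did not pass the test. In the same order the NRF1 core was in 13%, 18.2% and 6.9%, its inner part in 30.4%, 9.09% and 27.6%, and the YY1 letters in 8.7%, 9.09% and 20.7%. With so few windows a single one moves these shares by several points, and they were not tested. A match is a run of letters and not a measured binding site.

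Between TubB-labelled and other libraries, more subunits fell than rose in complexes I, III and V, while in complex IV 6 rose and none fell on the TMM scale. Of the 72 members, 70 passed the filter on low counts. Averaged over both backgrounds (with and without the stimulus label), 25 of these 70 were lower and 12 higher at an adjusted p under 0.05 (edgeR's quasi-likelihood test, Benjamini-Hochberg adjustment over 11081 genes). The test took all libraries as independent, although same-numbered libraries across the stimulus label were closer than replicates of a group. The p-values and SEs of this averaged comparison may therefore be too small. Among all genes tested, 31.5% were called lower and 31.7% higher, so the members' share called lower (35.7%) was near the background and their share called higher (17.1%) was under it. The median member log2 fold change was -0.13, against -0.02 for all genes tested. Most changes were small: 4 members moved by at least 1.5-fold, counting Cox7a1, whose change did not pass the test. In complex I, 15 of 33 fell and 3 rose, with a median of -0.17. In complex III, 4 of 8 fell and 1 rose, with a median of -0.14. In complex V, 6 of 16 fell and 2 rose, with a median of -0.11. In complex IV, 6 of 13 rose and none fell on the TMM scale, with a median of 0.09; on library totals 1 rose and 5 fell, and the median was -0.12 against -0.23 for all genes. On that scale the members called were 51 lower and 2 higher, where 45.6% of all genes were called lower and 22.0% higher. Bulk RNA cannot tell fewer cells of a kind from less RNA per cell.

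**Figure D1:**
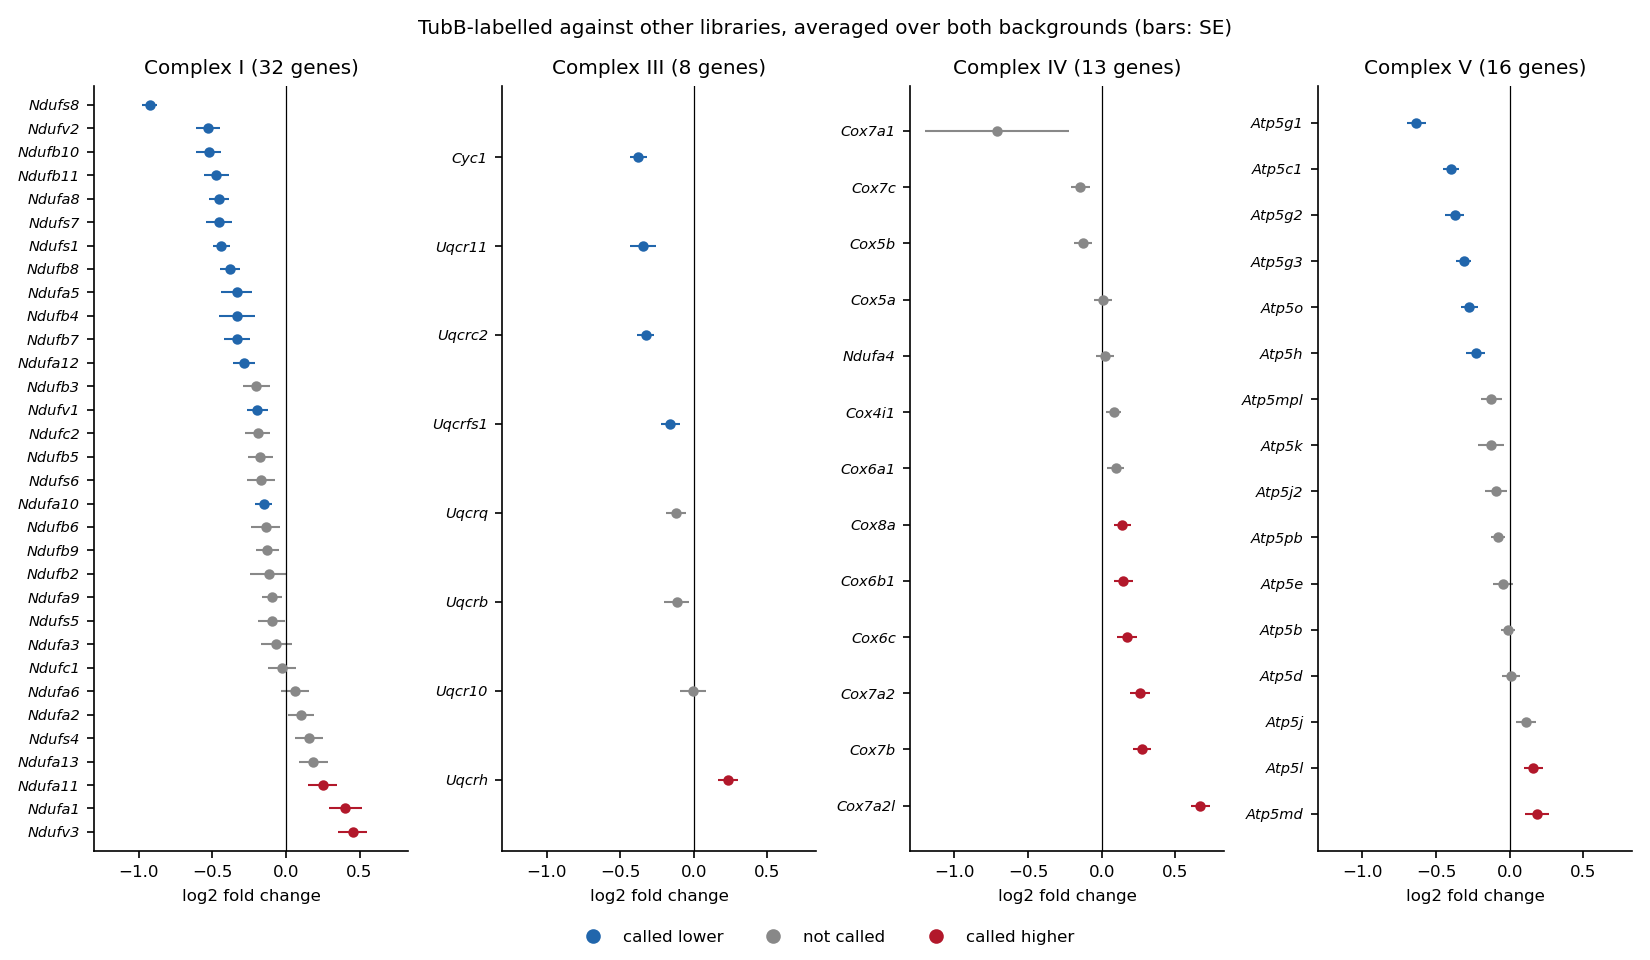
Log2 fold change of the subunit genes reported here (x axis, points with standard errors) between TubB-labelled and other libraries, averaged over both backgrounds, in 4 panels by complex. Blue points passed the test as lower, red as higher and grey did not pass; Ndufs8 (-0.93) and Cox7a2l (0.67) are the outermost points that passed, and the complex IV panel holds red points but no blue ones on this scale.

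Levels were compared between genes as CPM per kilobase of summed exon length in mock. Atp5b, the catalytic beta subunit of the ATP synthase, stood highest at 972 ± 7.31 CPM per kb (SD, n = 2), above Cox4i1 at 496 ± 0.50 and Ndufs8 at 452 ± 17.1. The lead of Ndufs8 within complex I was wide, since the next gene, Ndufa8, stood at 132 ± 3.75 CPM per kb and the median of the complex was 71.4. In the 2 TubB-labelled groups Ndufs8 was at 240 ± 5.69 (TubB) and 244 ± 11.3 CPM per kb (LPS_IFNg_TubB) and still led the complex. Complex III genes spanned 63.1 (Uqcrq) to 171 CPM per kb (Uqcrh). Complex IV had a median of 249 and complex V of 169 CPM per kb in mock. Reads that map to several places are left out under the counting program's defaults, so genes with near-identical copies can read low on this scale.

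Complex I carried the largest fall of any member. Ndufs8 encodes an iron-sulfur subunit of the Q module, the part that delivers electrons to ubiquinone (gene at chr19:3908863-3912774). The mock libraries held 452 and 477 CPM of Ndufs8, LPS_IFNg 469 and 488, TubB 250.1 and 242, and LPS_IFNg_TubB 242 and 259. The 4 TubB-labelled libraries lay far below the other 4, with replicates within each group close together. It fell by 47.4% (log2 fold change -0.93 ± 0.05 (SE), adjusted p = 1.02e-15, edgeR). Of the other genes of this module, Ndufs7 and Ndufa5 were also lower. Levels of Ndufs7 were 60.6 and 73.7 CPM in mock, 65.2 and 71.3 in LPS_IFNg, 49.4 and 55.3 in TubB, and 48.0 and 44.8 in LPS_IFNg_TubB. All 4 TubB-labelled values of this gene, which holds the last iron-sulfur cluster before ubiquinone, were below all others (log2 fold change -0.46 ± 0.09 (SE), adjusted p = 3.74e-05, edgeR).

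The N module, where NADH is oxidised, had 4 genes lower and 1 higher of 8 tested. Of all genes tested, 31.5% were lower and 31.7% higher. With so few genes in a module, such shares were not tested. For Ndufv2, mock gave 89.0 and 81.6 CPM and LPS_IFNg 85.6 and 99.2, and TubB gave 61.3 and 61.6 and LPS_IFNg_TubB 54.9 and 67.4. This iron-sulfur subunit was lower in every TubB-labelled library than in any other (log2 fold change -0.53 ± 0.08 (SE), adjusted p = 1.32e-06, edgeR). Ndufs1, the largest subunit of the complex and a carrier of several iron-sulfur clusters, showed the same separation. Ndufs1 was at 169 and 165 CPM in mock, 166 and 163 in LPS_IFNg, 120.3 and 121 in TubB, and 128 and 120.3 in LPS_IFNg_TubB. Its change was log2 fold change -0.44 ± 0.06 (SE), adjusted p = 1.23e-07, edgeR. Ndufv1, which binds NADH and flavin, and Ndufa12, an accessory subunit, fell by 0.19 and 0.29 on the log2 scale; the call on Ndufv1 was lost under DESeq2 and without mock replicate 2, TubB replicate 2, LPS_IFNg replicate 2 or LPS_IFNg_TubB replicate 1. Ndufv3, a small accessory subunit, went the other way. The mock libraries held 31.3 and 34.8 CPM of Ndufv3, LPS_IFNg 28.0 and 30.8, TubB 45.0 and 36.9, and LPS_IFNg_TubB 44.5 and 45.1. Its lowest TubB-labelled library was above the highest of the others, and the rise (log2 fold change 0.45 ± 0.10 (SE), adjusted p = 0.000259, edgeR) passed the test under all 15 alternatives, library totals included, where it was 0.24.

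Accessory subunits of the membrane arm support the proton-pumping core. In its distal part, all 10 Ndufb genes tested had a negative fold change and 5 fell: Ndufb10, Ndufb11, Ndufb8, Ndufb4 and Ndufb7. Among all genes tested, 51.1% had a negative fold change, 31.5% fell and 31.7% rose. Levels of Ndufb10 were 71.0 and 77.8 CPM in mock, 76.0 and 69.5 in LPS_IFNg, 47.9 and 52.9 in TubB, and 44.1 and 58.2 in LPS_IFNg_TubB. The groups did not overlap (log2 fold change -0.52 ± 0.09 (SE), adjusted p = 5.85e-06, edgeR). Ndufb11 changed by -0.47, but 29.0% of its exon length overlaps exons of Rbm10. Without strand, reads from that shared stretch cannot be told apart. In the proximal part, 2 of 9 fell (Ndufa8 and Ndufa10) and 2 rose (Ndufa1 and Ndufa11). For Ndufa8, mock gave 107 and 102 CPM and LPS_IFNg 110.0 and 111, and TubB gave 86.5 and 80.5 and LPS_IFNg_TubB 74.8 and 72.9. Here too the TubB-labelled libraries were all lower (log2 fold change -0.46 ± 0.07 (SE), adjusted p = 8.16e-07, edgeR). Ndufa1 was at 26.1 and 26.2 CPM in mock, 26.0 and 28.4 in LPS_IFNg, 40.9 and 29.9 in TubB, and 33.3 and 38.0 in LPS_IFNg_TubB. Ndufa1, a small single-pass subunit, was higher in each TubB-labelled library, although TubB replicates 1 and 2 differed widely (log2 fold change 0.40 ± 0.11 (SE), adjusted p = 0.00268, edgeR). On library totals this rise was 0.19 with an adjusted p = 0.141, and the rise of Ndufa11 (0.25) was lost on library totals, under DESeq2 and without mock replicate 2, TubB replicate 1, LPS_IFNg replicate 1 or LPS_IFNg_TubB replicate 2.

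**Figure D2:**
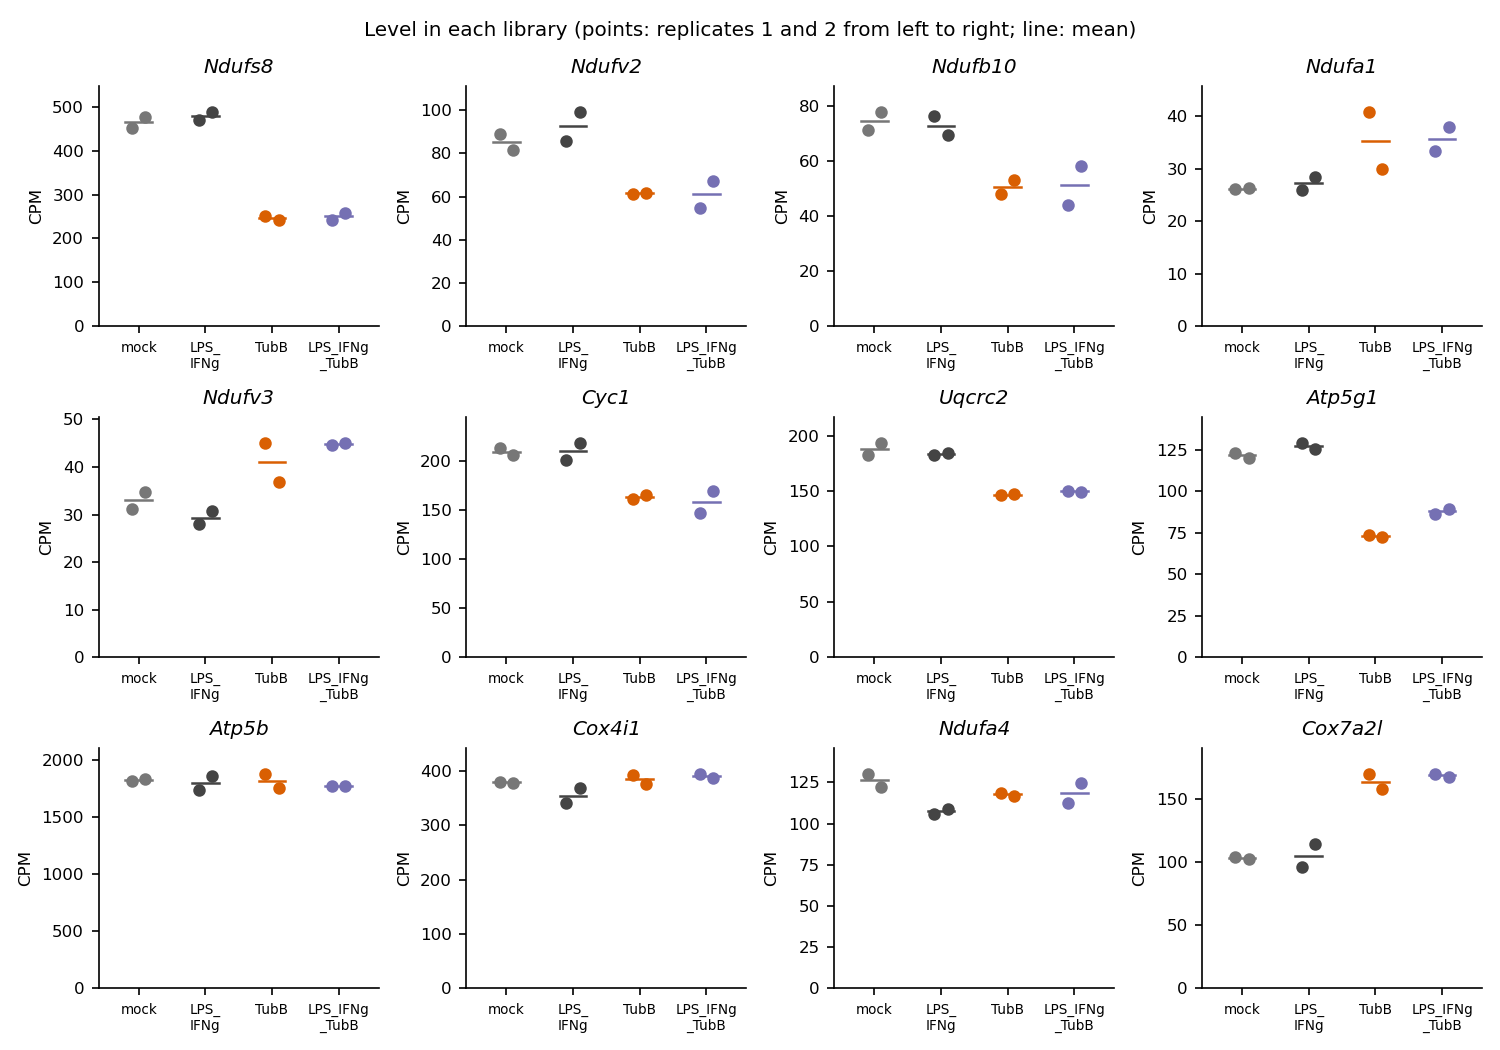
Level of 12 subunit genes in CPM (y axes from 0) in each library of the 4 labelled groups; points are replicates 1 and 2 from left to right and lines their mean. Ndufs8 falls from 452-488 to 242-259 CPM, Cox7a2l lies at 158-170 CPM in TubB-labelled libraries, and the groups overlap for Atp5b, Cox4i1 and Ndufa4.

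In complex III both nuclear genes for electron-carrying subunits were lower, as were 31.5% of all genes tested. The mock libraries held 213 and 206 CPM of Cyc1, LPS_IFNg 202 and 219, TubB 162 and 166, and LPS_IFNg_TubB 148 and 169.9. This gene, for cytochrome c1, read lower in each TubB-labelled library than in any other (log2 fold change -0.38 ± 0.06 (SE), adjusted p = 1.66e-06, edgeR). The Rieske iron-sulfur protein, Uqcrfs1, changed by -0.16 ± 0.07, with overlapping groups, and its call was lost under 7 of 15 alternatives: RLE factors, DESeq2, limma on rlog values, and without mock replicate 2, TubB replicate 2, LPS_IFNg replicate 2 or LPS_IFNg_TubB replicate 1. Uqcrc2, a core subunit, showed the same separation of libraries. Levels of Uqcrc2 were 183 and 194 CPM in mock, 183 and 185 in LPS_IFNg, 147 and 147 in TubB, and 149.9 and 149 in LPS_IFNg_TubB. It fell by 0.33 on the log2 scale (SE 0.06, adjusted p = 7.81e-06, edgeR), with 26.7% of its exon length shared with Pdzd9. Uqcr11, a small subunit, fell by 0.34. Uqcrh, the hinge protein that helps cytochrome c dock, rose by 0.23 (log2), with one TubB-labelled library, TubB replicate 2, inside the range of the others; on library totals this was 0.02 and not called. Uqcrb, Uqcrq and Uqcr10 did not pass the test (-0.12 ± 0.08, -0.12 ± 0.07 and -0.00 ± 0.09).

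Complex IV held the largest rise. Cox7a2l encodes a relative of subunit 7a that is known to join complexes III and IV in supercomplexes. For Cox7a2l, mock gave 104 and 103 CPM and LPS_IFNg 96.3 and 114, and TubB gave 169.8 and 158 and LPS_IFNg_TubB 169.9 and 167. The TubB-labelled libraries were all above the others, and the change was 59.1% (log2 fold change 0.67 ± 0.06 (SE), adjusted p = 1.85e-10, edgeR). It passed the test under every one of the 15 alternatives, with 0.46 on library totals (adjusted p = 4.37e-07, edgeR). Of the 11 subunits common to most tissues, Cox7b (0.27), Cox7a2 (0.26), Cox6c (0.17), Cox6b1 (0.15) and Cox8a (0.14) rose on the TMM scale. On library totals none of these 5 passed, and Cox6c, Cox6b1 and Cox8a turned to -0.04, -0.07 and -0.07. Cox7a2 shares 14.9% of its exon length with Tmem30a. On the TMM scale Cox7c (-0.15, adjusted p = 0.0504, edgeR) just missed a call as lower. Its level was lower in every TubB-labelled library than in any other. Cox6b1 only just passed as higher (adjusted p = 0.0494, edgeR). With DESeq2, and without mock replicate 1 or TubB replicate 1, 3 members of the complex rose in place of 6. The call on Cox6b1 was lost without any single library other than TubB replicate 2 and LPS_IFNg replicate 2. For Cox6c those were mock replicates 1 and 2, TubB replicate 1, LPS_IFNg replicate 1 and LPS_IFNg_TubB replicate 2, and for Cox8a mock replicate 1, TubB replicate 1, LPS_IFNg replicate 2 and LPS_IFNg_TubB replicate 1.

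Cox4i1 and Ndufa4 are regulatory subunits of complex IV, the second of which was long counted with complex I. Cox4i1 was at 379 and 379 CPM in mock, 340.4 and 369 in LPS_IFNg, 394 and 377 in TubB, and 395 and 388 in LPS_IFNg_TubB. The groups overlapped, and the averaged change was 0.08 ± 0.05 (not called; -0.13 on library totals). The mock libraries held 130.2 and 122 CPM of Ndufa4, LPS_IFNg 106 and 109, TubB 119 and 117, and LPS_IFNg_TubB 112 and 124. Ndufa4 was highest in mock, lowest in LPS_IFNg and between them in both TubB-labelled groups. Its averaged change was 0.02 ± 0.06 (not called; -0.19 on library totals), made of -0.10 without and 0.14 with the stimulus label. In inflammatory macrophages Ndufa4 is known to be replaced by the product of AA467197, but that symbol, listed at 0, has a numbered copy in the table, so its 0 is not evidence that it was silent. Placing Ndufa4 in complex I by its name left 15 lower and 3 higher of 34 there.

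Complex IV subunits with tissue isoforms were read almost wholly as the common form. Cox4i2 had 0 to 7 counts a library and Cox6a2 0 to 4, both too low to test, against 340 to 395 CPM for Cox4i1 and 160 to 187 CPM for Cox6a1. Cox7a1, the heart and muscle form, had 0.661 to 2.60 CPM. Cox6b2, Cox7b2, Cox8b, Cox8c and Ndufa4l2 had no counts, which allows up to 0.376 to 0.688 CPM a library (3 counts, counting error only). The 6 other rows under the minimum were Ndufs3 (1 count), Ndufa7, Uqcrc1, Atp5a1 and the numbered copies of the last 2. Each has or is a second copy in the annotation, so its 0 is not evidence of a silent gene.

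In complex V the c-ring, the rotor turned by protons, was the role with every gene lower (3 of 3, against 31.5% of all genes tested). Levels of Atp5g1 were 123 and 120.2 CPM in mock, 129 and 125 in LPS_IFNg, 73.6 and 72.4 in TubB, and 86.3 and 89.5 in LPS_IFNg_TubB. The drop (log2 fold change -0.63 ± 0.06 (SE), adjusted p = 8.23e-10, edgeR) was the second largest of any member that passed the test. For Atp5g2, mock gave 105 and 117 CPM and LPS_IFNg 115 and 112, and TubB gave 79.9 and 86.3 and LPS_IFNg_TubB 91.4 and 89.1. Atp5g3 was at 299 and 321 CPM in mock, 295 and 321 in LPS_IFNg, 247 and 234 in TubB, and 252 and 263 in LPS_IFNg_TubB. None of the 3 c-ring genes had a TubB-labelled library within the range of the others, and Atp5g2 and Atp5g3 changed by -0.37 ± 0.07 and -0.31 ± 0.05. The promoter windows shown above differ: 1 holds NRF1 letters and the others hold none of the motifs searched. Each of these genes had 1 window. That of Atp5g3 lies wholly inside the annotated gene (chr2:73908447-73912464), whose upstream end was not searched.

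In the head of complex V, where ATP is made, 1 of 4 genes tested fell and none rose, against 31.5% and 31.7% of all genes tested. The mock libraries held 1816 and 1836 CPM of Atp5b, LPS_IFNg 1737 and 1864, TubB 1881 and 1758, and LPS_IFNg_TubB 1772 and 1774. The groups overlapped throughout, and the averaged change of Atp5b was -0.01 ± 0.05 (not called; -0.23 on library totals, where the median of all genes was also -0.23). Atp5c1, the gamma stalk that turns within the head, fell. Levels of Atp5c1 were 252 and 253 CPM in mock, 258 and 270.1 in LPS_IFNg, 196 and 193 in TubB, and 189 and 204 in LPS_IFNg_TubB. Its TubB-labelled values were all below the rest (log2 fold change -0.40 ± 0.05 (SE), adjusted p = 1.38e-07, edgeR). Of the peripheral stalk, which holds the head still, Atp5o and Atp5h fell by 0.27 and 0.23 on the log2 scale, while Atp5pb and Atp5j did not pass the test. Atp5l and Atp5md, small membrane subunits, rose by 0.16 and 0.19 on the TMM scale. Each of these calls was lost under 8 of 15 alternatives: on library totals, with no count filter and with DESeq2 for both, limma-voom for Atp5md, and without TubB replicate 1, LPS_IFNg replicate 1 or LPS_IFNg_TubB replicate 2 for both, mock replicate 1 or LPS_IFNg_TubB replicate 1 for Atp5l and mock replicate 2 for Atp5md. On library totals the values turned to -0.05 and -0.03.

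The same comparison within each background used separate libraries, but both came from the same fit with a shared estimate of the spread. Same-numbered libraries of both backgrounds were also closer than replicates of a group, so these comparisons are not independent repeats. For TubB against mock, 20 members fell and 3 rose of 70, where 24.9% of all genes tested fell and 26.3% rose. For LPS_IFNg_TubB against LPS_IFNg, 19 fell and 7 rose, where 25.0% of all genes fell and 26.2% rose. Of these, 17 fell in both and 2, Cox7a2l and Ndufa1, rose in both, and none was called in opposite directions. Both rises of Cox7a2l held under all 17 alternatives. Those of Ndufa1 were each lost under 5 of 17, DESeq2 and library totals among them. The fall of Uqcr11 for TubB against mock was lost under 11 of 17. Of all genes tested, 20.7% fell in both and 22.8% rose in both, so the members' share that fell in both (24.3%) was near the background and their share that rose in both (2.86%) was under it. Ndufs8 changed by -0.92 without and -0.93 with the stimulus label, and Cox7a2l by 0.66 and 0.68. Atp5g1 changed by -0.74 and -0.53, and Ndufa8 by -0.33 and -0.58. Without TubB replicate 2, the TubB against mock counts were 14 lower and 6 higher, and without mock replicate 2 or TubB replicate 1 the higher count was 1. Without LPS_IFNg_TubB replicate 1, 12 members fell in the other background, and without LPS_IFNg replicate 1, 4 rose there. The difference between the backgrounds itself, tested as an interaction, was called for 0 of 70 members and 0% of all genes by edgeR, with fitted differences from -0.26 to 0.31. No member reached an unadjusted p under 0.05 with edgeR or DESeq2, and 2 did with limma-voom. With edgeR, 277 of 11081 genes tested reached it.

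**Figure D3:**
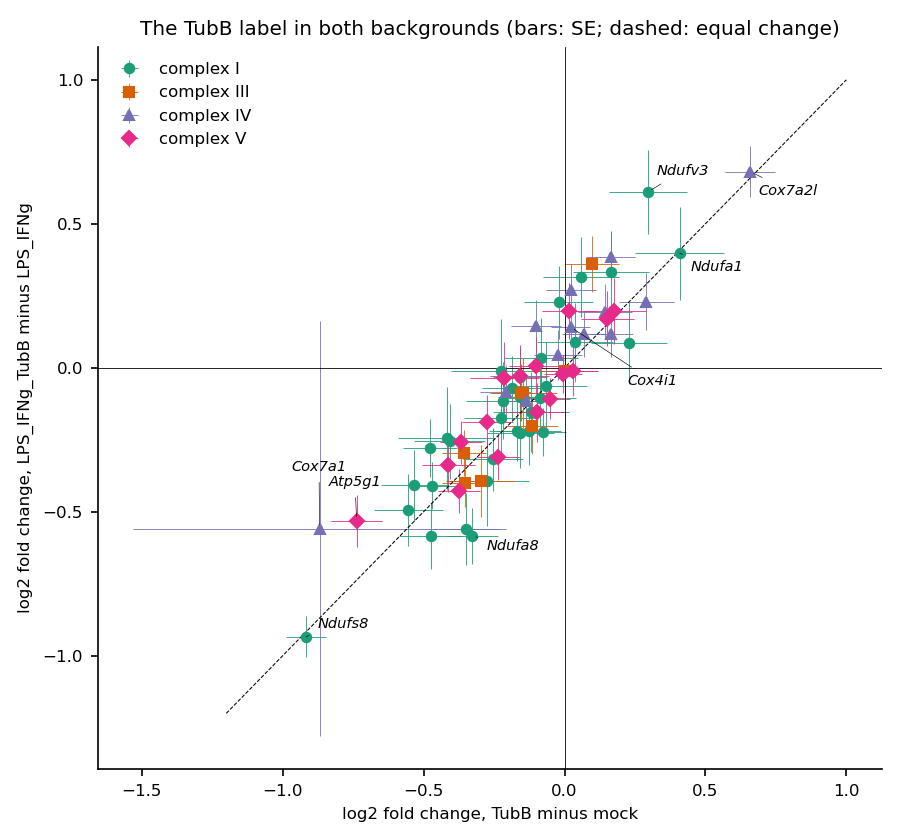
Log2 fold change of each tested subunit gene for TubB against mock (x axis) and for LPS_IFNg_TubB against LPS_IFNg (y axis), with standard errors; marker shape and colour give the complex, and the dashed line is equal change. Ndufs8 lies at -0.92 and -0.93 and Cox7a2l at 0.66 and 0.68, both close to that line, and the wide bars belong to Cox7a1.

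The stimulus label alone gave no call. For LPS_IFNg against mock, 0 of 70 members and 0% of all genes passed with edgeR. An unadjusted p under 0.05 was reached by 4 of 70 members and by 247 of 11081 genes tested. These members were Ndufa4, Cox6b1, Ndufa2 and Atp5e, each lower in LPS_IFNg. DESeq2 gave 1 such member and limma-voom 4. Fitted changes ran from -0.27 to 0.12 with a median SE of 0.10. For LPS_IFNg_TubB against TubB, again 0 of 70 members and 0% of all genes passed with edgeR. One member, Atp5g1, had an unadjusted p under 0.05, at 0.27 ± 0.10 on the log2 scale (adjusted p = 0.999, edgeR). Of 11081 genes tested, 269 had such a p. DESeq2 found 1 such member there and limma-voom 2.

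Counted without regard to level, 24 of 70 members were lower in all 4 TubB-labelled libraries than in any other, where 29.1% of all genes were, and 6 were higher in all 4, where 29.7% of all genes were. The lower ones were 13 genes of complex I, 3 of complex III, 1 of complex IV (Cox7c, which did not pass the test) and 7 of complex V. The higher ones were 3 of complex I (Ndufv3, Ndufa1 and Ndufa11) and 3 of complex IV (Cox7a2l, Cox7b and Cox7a2).

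Summed over its members, each complex took a smaller mean share of the library in the TubB-labelled groups. On library totals the median gene of all tested also fell there (log2 change -0.23). Median member changes on that scale were -0.38 in complex I, -0.35 in III, -0.32 in V and -0.12 in IV. The fall in complex IV was thus smaller than that of the median gene. Complex I took 0.295% ± 0.00648 of all counts in mock (SD, n = 2) and 0.289% ± 0.0123 in LPS_IFNg. It took 0.206% ± 0.00246 in TubB and 0.204% ± 0.00512 in LPS_IFNg_TubB. Complex IV was at 0.201% ± 0.00399 in mock, 0.196% ± 0.0103 in LPS_IFNg, 0.183% ± 0.00286 in TubB and 0.189% ± 0.00318 in LPS_IFNg_TubB. By library the shares of complex IV overlapped, with LPS_IFNg replicate 1 (0.188%) below LPS_IFNg_TubB replicate 2 (0.192%). As a ratio of TubB-labelled to other libraries, the shares were 0.703 for complex I, 0.756 for III, 0.805 for V and 0.939 for IV. With TMM factors the ratios were 0.816, 0.877, 0.934 and 1.09 in the same order, so the sum of complex IV lay below that of the other libraries on one scale and above it on the other. The sums are led by abundant genes, Atp5b above all in complex V.

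**Figure D4:**
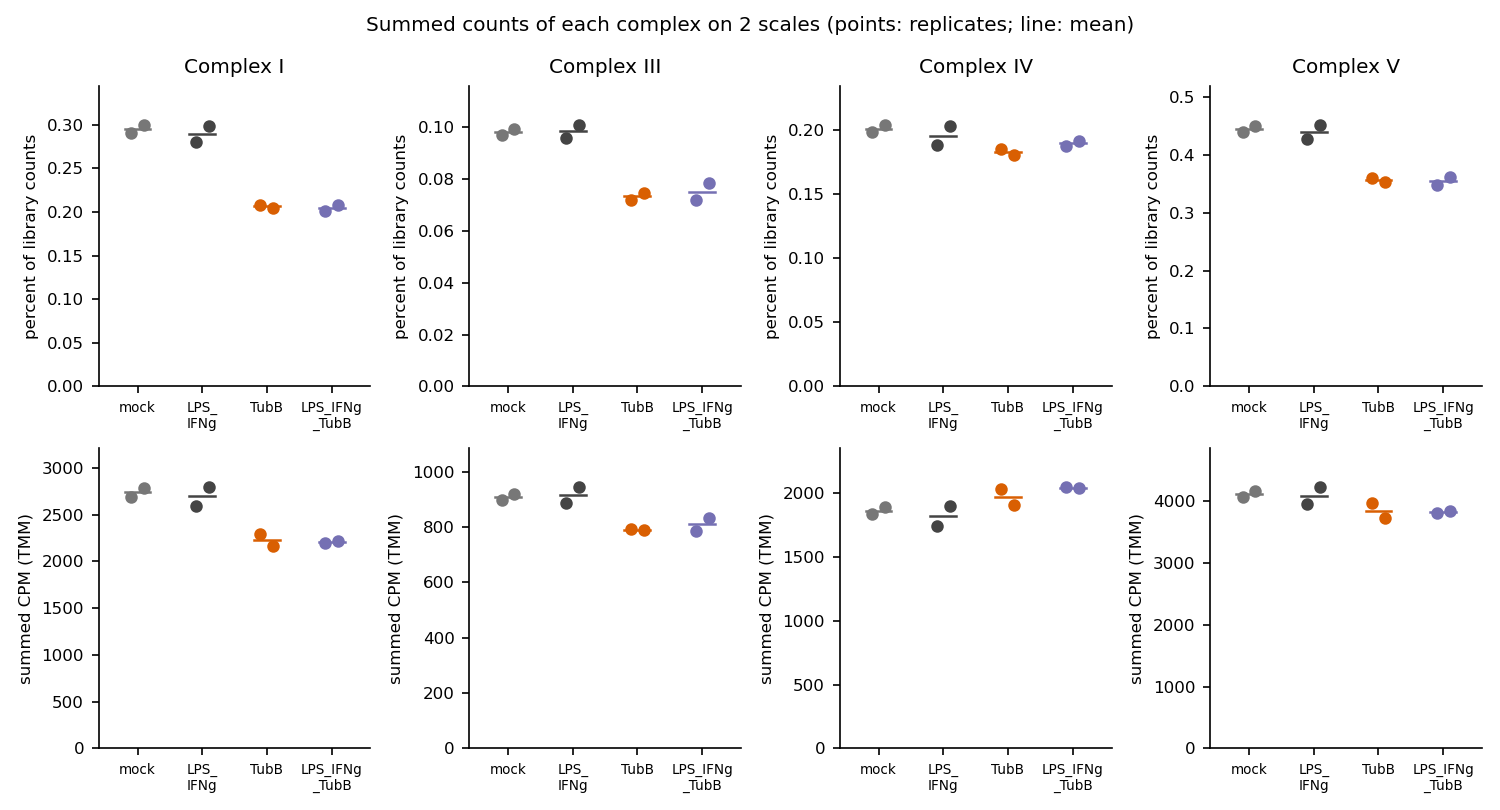
Summed counts of the members of each complex in each library, as a percent of library counts (upper row) and as CPM with TMM factors (lower row), for the 4 labelled groups; points are replicates and lines their mean. Complex I is lower in TubB-labelled libraries on both scales (0.204-0.206% against 0.289-0.295% by group means), and complex IV changes side between the scales.

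Other genes of the pathway were read in the same averaged comparison, where 31.5% of all genes fell and 31.7% rose (45.6% and 22.0% on library totals). Complex II, which feeds electrons from succinate, had 3 of 4 genes lower and none higher, with Sdha at -0.40 ± 0.05 and Sdhb at -0.35 ± 0.06. Of 16 complex I assembly factors tested, 9 fell and 0 rose, and the median of -0.42 was lower than that of the complex I subunits themselves. Ndufaf4 went from 43.9-45.9 CPM to 21.4-24.3 CPM (-0.95 ± 0.10), and Tmem186, Ndufaf6 and Ndufaf7 changed by -0.78, -0.74 and -0.71. Complex III assembly factors fell in 4 of 6 cases, among them Bcs1l, which inserts the Rieske protein (-0.77 ± 0.16), and Lyrm7, its chaperone, which was at most 4.04 CPM in any library (-1.88 ± 0.47). Complex II and V assembly factors fell in 1 of 4 and 3 of 5 cases, led by Sdhaf1 (-1.21 ± 0.18) and by Oxa1l, the inner-membrane insertase (-0.93 ± 0.08). No gene of these lists rose.

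Of 22 complex IV assembly factors, 8 fell and 5 rose, shares near the background for falls and under it for rises. On library totals these counts were 11 and 3, with the rises of Cox19 and Higd2a no longer called (0.19 and 0.03). Higd1a, a hypoxia-inducible partner of the complex, went from 22.7-30.6 CPM to 67.5-82.6 CPM (1.45 ± 0.10). Coa5 rose by 0.56 ± 0.06, and Cox17, the copper chaperone, by 0.50 ± 0.06, and these 3 rises held on library totals. Lrpprc, which stabilises mitochondrial messenger RNA, and Cox18 fell by 0.57 and 0.55 on the log2 scale. Among carriers and partners 4 of 8 fell and 2 rose (5 and 1 on library totals). Sqor, which passes electrons from sulfide to ubiquinone, rose by 1.23 ± 0.14, while Dhodh, Atpif1, the inhibitor of the ATP synthase, and Etfb fell by 0.84, 0.81 and 0.73. Cytochrome c itself, Cycs, rose by 0.16 on the TMM scale and was at -0.05 on library totals (not called). Of 12 genes of coenzyme Q synthesis, 5 fell (8 on library totals) and 2, Coq8b (1.03) and Coq10b (0.94), rose on both scales, with Coq2 and Coq6 at -0.59 and -0.57.

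A list of 18 genes held known regulators of respiratory genes along with genes of mitochondrial upkeep, such as Twnk. Of these 18, 8 fell and 4 rose on the TMM scale, where 31.5% of all genes tested fell and 31.7% rose. On library totals 12 fell and only Myc rose, while Esrra, Lonp1 and Yy1 lost their calls (0.17, 0.11 and 0.04). On that scale 45.6% of all genes fell and 22.0% rose. Myc went from 10.4-15.9 CPM to 61.4-80.8 CPM (2.52 ± 0.11). Ppargc1b, the coactivator PGC-1β, went from 49.6-61.2 CPM to 20.6-29.3 CPM (-1.06 ± 0.11). Twnk, the mitochondrial DNA helicase, and Tfam, which packages and transcribes that DNA, changed by -0.99 ± 0.11 and -0.88 ± 0.10. Nrf1 and Gabpa, whose motifs were searched in the promoters, did not pass the test (0.08 ± 0.10 and -0.11 ± 0.08). Yy1 rose by 0.25 ± 0.06 on the TMM scale only.

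**Figure D5:**
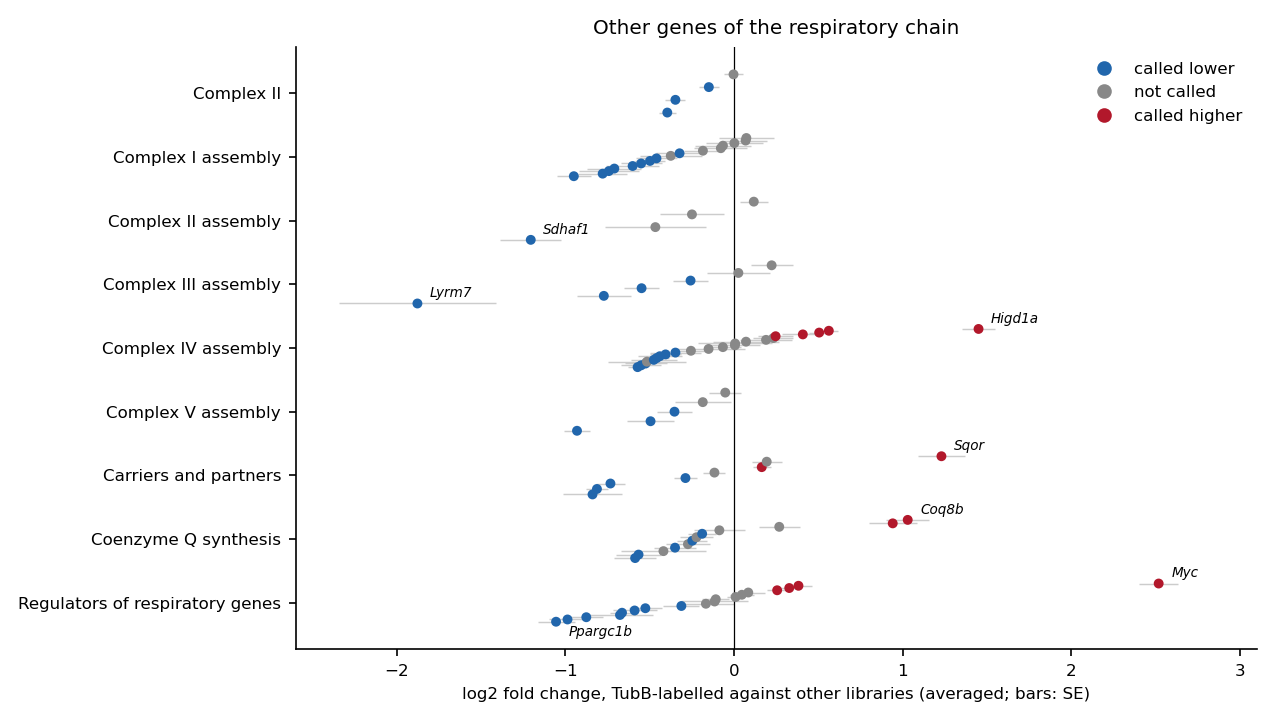
Log2 fold change of each tested gene of 9 related lists between TubB-labelled and other libraries, averaged over both backgrounds (x axis, with standard errors), with one row a list. Blue points passed the test as lower, red as higher and grey did not pass; names mark genes beyond 1 in either direction, from Lyrm7 (-1.88) to Myc (2.52), and the assembly lists of complexes I, II, III and V hold no red point.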

How the data were processed

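Polyadenylated RNA of 8 libraries was sequenced without keeping strand, per the labels' protocols. The authors deposited raw counts per gene. Reads were aligned with STAR 2.7.0, per the submitters' processing notes, and counted over exons with featureCounts 2.0.1 on the RefSeq annotation of GRCm38.p6, per the file headers, with no option for strand or multi-mapped reads. The deposited table also gives summed exon length in bases, used for CPM per kilobase. The authors deposited regularised log2 values (rlog) too, used as an alternative.

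The test was edgeR 4.0.16's quasi-likelihood test (R 4.3.3) on all 8 libraries, with TMM factors, filterByExpr (minimum count 10, 11081 genes kept), group as the only term (4 residual degrees of freedom), Benjamini-Hochberg adjustment over all genes kept and calls under 0.05. The averaged comparison is the mean of the TubB label's effects in both backgrounds. The SE of a fold change was derived from its F statistic. Levels are CPM with TMM factors. Library totals were 4767894 to 8413834 counts. Of the 70 members tested, 16 had under 200 counts in a library, where counting error alone is at least 0.10 on the log2 scale. The fits were tested on simulated counts. Named genes were, per complex, up to 5 called members with the largest rise and 5 with the largest fall, the highest per kilobase, and a list of catalytic subunits and isoforms; others are named to complete a count. From each related list up to 4 called genes were named, and a few more after their values were seen. Alternatives were RLE factors, no count filter, DESeq2 1.42.0, limma-voom and limma on rlog values (limma 3.58.1), the compared groups alone, a replicate block and leaving out each library. Library totals in place of TMM, and the block within compared groups, were added after the data were seen. The members and lists were chosen with earlier results of these data known. The values of a complex I gene are not reported here; the gene stays in the counts and sums.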

Additional observations from a re-analysis of the deposited data

How the results depend on the processing

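Depth limits the low members: the lowest count in a library was 4 for Cox7a1, 83 for Ndufb4, 101 for Ndufb2 and 108 for Ndufa5, a counting error of 0.72, 0.16, 0.14 and 0.14 on the log2 scale, against a median member change of -0.13. With library totals in place of TMM, chosen after seeing the data, the counts lower and higher were 48 and 1 for TubB minus mock, 40 and 2 for LPS_IFNg_TubB minus LPS_IFNg, and 51 and 2 averaged. By complex, averaged, they were 26 and 1 for I, 7 and 0 for III, 5 and 1 for IV, and 13 and 0 for V. The median of all genes moved the same way on that scale. Averaged, 45.6% of 11081 genes tested were called lower and 22.0% higher, so 67.5% of calls were lower. For TubB minus mock 6208 of 11081 genes were called in either direction, and for LPS_IFNg_TubB minus LPS_IFNg 6132. Averaged values of 15 of 70 members turned from above to below 0 there, 5 of them called under TMM; of the named genes they were Cox6c -0.044, Cox6b1 -0.068, Cox4i1 -0.13, Cox6a1 -0.12, Cox8a -0.075, Ndufa4 -0.19, Atp5md -0.028 and Atp5l -0.053. Summed CPM with TMM factors gave ratios of 0.925 for all members, 0.816 for complex I, 0.877 for III, 1.09 for IV and 0.934 for V. DESeq2 gave 6 higher averaged, 3 of them in complex IV and 0 in V; in complex V no count filter gave 0 higher and limma-voom 1. The cause was not tested.

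Leaving out each library gave 14 to 20 lower and 1 to 6 higher for TubB minus mock, 12 to 19 and 4 to 9 for LPS_IFNg_TubB minus LPS_IFNg, and 20 to 27 and 6 to 13 averaged. By complex, averaged, it gave 11 to 16 lower and 2 to 4 higher in I, 3 to 4 and 1 in III, 0 to 1 and 3 to 6 in IV, and 6 and 0 to 2 in V, with 0 calls throughout in the other 3 comparisons. Atp5b, not called, ranged from -0.042 to 0.020, above 0 without TubB replicate 2 or LPS_IFNg replicate 2 (0.010). Ndufa4, not called, ranged from -0.020 to 0.064, below 0 without mock replicate 2 or LPS_IFNg_TubB replicate 2. The averaged calls of Ndufs8, Ndufv2, Ndufb10, Ndufs1, Ndufv3, Cyc1, Uqcrc2, Cox7a2l, Atp5g1, Atp5g2 and Atp5g3 held under all 15 alternatives run.

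Replicate numbers marked closeness across the stimulus label but not across the TubB label. Deviations of same-numbered libraries correlated at 0.14 between mock and LPS_IFNg and 0.26 between TubB and LPS_IFNg_TubB (8804 genes). By chi-square these same-numbered libraries were also closer (1.91 to 2.32) than replicates of a group (2.55 to 4.74). Between the other groups the correlations ran from -0.09 to 0.00. The main test had no term for replicate number. With the replicate block, complex IV had 1 member lower, averaged, in place of 0.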
